A study of Mus musculus with 6 samples.

Results

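The nuclear-encoded subunits of the respiratory chain and ATP synthase were examined in small intestinal organoids treated with LDL or with PBS. Members were the protein-coding genes of the count table with symbols beginning Ndufa, Ndufb, Ndufc, Ndufs, Ndufv, Uqcr, Cox4i, Cox5, Cox6, Cox7, Cox8 or Atp5, together with Sdha to Sdhd and Cyc1. Assembly factors with Ndufaf or Sdhaf symbols were left out. Cox7a2l, a supercomplex assembly factor, and Atp5if1, the inhibitor of ATP synthase, met the rule by their symbols and were kept. This rule gave 91 of 55416 genes: 38 of complex I, 4 of complex II, 9 of complex III, 21 of complex IV and 19 of complex V. Ndufa4 and Ndufa4l2 were placed in complex IV, where Ndufa4 is known to reside, and Cox5b-ps, annotated as protein coding despite its name, was kept with Cox5b. Crypts from the duodenum and jejunum of C57BL/6 mice labelled WT were grown in Matrigel and IntestiCult medium, and each of 3 mice gave 1 culture with 50 μg/ml LDL and 1 with PBS, both collected after 5 days. The genotype field reads WT for all 3 mice, but the identifier of mouse 3 in the labels has another prefix than those of mice 1 and 2, so its genotype is less certain.

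The respiratory chain passes electrons from NADH through complex I, or from succinate through complex II, by way of ubiquinone to complex III, cytochrome c and the oxygen-reducing complex IV, and complexes I, III and IV pump protons across the inner mitochondrial membrane. Complex V, the ATP synthase, uses the returning protons to make ATP. Most subunits are encoded in the nucleus and imported, whereas a small set of core subunits is encoded by mitochondrial DNA. In the intestine this machinery supplies absorptive and secretory cells, and crypt stem cells are known to use mitochondrial oxidation as well.

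With LDL, the median change of the subunit genes was a decrease of modest size in each of the 5 complexes. Of the 91 members, 84 had a mean normalized count (reads divided by the size factor of the library) of at least 10 and were tested with limma on log2(normalized count + 1), with the mouse as a block and Benjamini-Hochberg adjustment over all 18459 genes tested. In that fit 31 of the 84 fell and 0 rose at an adjusted p under 0.05, where 7.45% of all genes tested fell and 8.27% rose, and at an unadjusted p under 0.05 the counts were 59 and 0, where 15.7% and 14.4% of all genes tested were lower and higher. The median log2 fold change was -0.31, a change of -19.6%, beside -0.02 for all genes tested, and 82 of the 84 estimates were below 0. Among the 31 that fell, log2 fold changes lay between -0.72 and -0.29. Only 3 (Cox7a1, Ndufb11 and Atp5if1) fell by more than 1.5-fold, where 3.46% of all genes fell and 5.68% rose by as much.

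These calls depended on pairing the libraries of a mouse and on which mice entered. Without the mouse as a block limma called 0 members (0.412% of all genes were lower and 0.932% higher), with a smallest adjusted p of 0.129, and 11 were lower at an unadjusted p under 0.05, beside 9.73% of all genes. With the block, edgeR called 27 members lower (7.35% of all genes) and DESeq2 29 (6.19%), on reads recovered from the normalized counts. Of these, 27 and 25 were among the 31, and neither tool called a member higher. From the 31, edgeR did not call Cox7a1, Uqcrc2, Ndufa10 and Atp5pb. DESeq2 did not call Cox7a1, Uqcrc2, Uqcrh, Ndufb10, Ndufs6 and Cox5b-ps. Upper-quartile scaling gave 43 (9.38% of all genes). Quantile normalization gave 29 (1433 of all genes tested) and scaling to the nuclear protein-coding total 26 (1186). With no filter the count was 23 (1218, over a larger set of genes). Without mouse 1 the count was 4 (Ndufb11, Ndufa1, Cox7a2l and Atp5if1; 3.09% of all genes), without mouse 2 it was 73 (16.6%) and without mouse 3 it was 0 (0.417%), with 20 at an unadjusted p under 0.05, beside 7.91% of all genes. Mouse 3, without which no member was called, is the mouse whose identifier has another prefix. Its genotype field reads WT, and whether the identifier bears on the calls was not tested. The median log2 fold change stayed between -0.43 and -0.23 in these 3 fits.

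Within mice, the median log2 difference of LDL from PBS was -0.49 in mouse 1, -0.08 in mouse 2 and -0.38 in mouse 3, and 80, 63 and 84 of the 84 members were below 0. In all 3 mice 62 of 84 members were lower with LDL, against 26.8% of all genes. The 3 LDL values lay below the 3 PBS values for only 2 members, Cox7a2l and Atp5if1, against 12.3% of all genes. The LDL library of mouse 1 was the lowest of the 6 for 76 members and that of mouse 2 the highest LDL library for 83. The coefficient of variation over 3 libraries had a median of 25.8% with LDL and 10.4% with PBS, and was larger with LDL for 81 of 84 members.

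**Figure D1:**
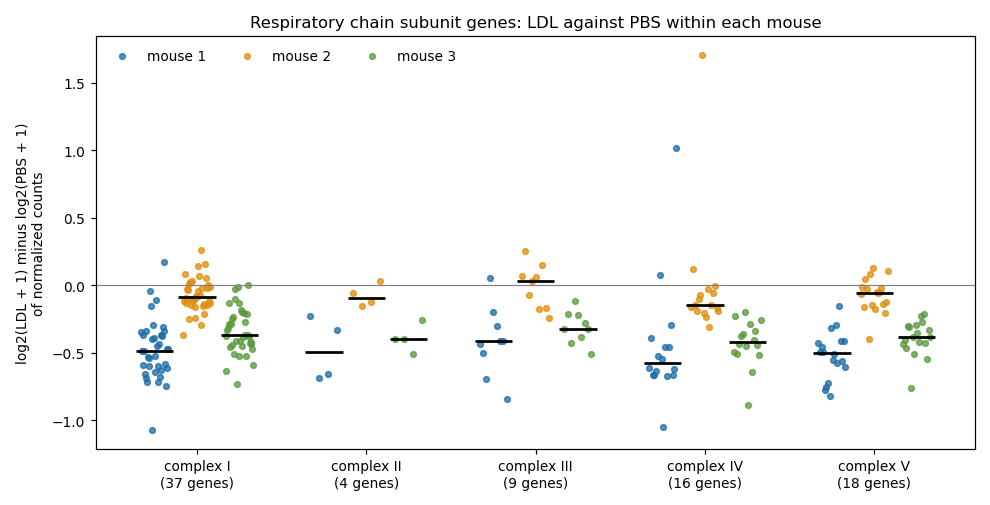
Difference between the LDL and PBS library of each mouse in log2(normalized count + 1) for the 84 tested subunit genes, by complex. Each point is 1 gene and black bars are medians; mice 1 and 3 lie mostly below 0, and mouse 2 lies close to 0, with a median of -0.08 over all members. The 2 points above 1 are Ndufa4l2 in mouse 1 and Cox6b2 in mouse 2, both genes with few reads.

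Between 22061545 and 31073360 reads per library fell on genes. The LDL library of mouse 1 stood apart, with reads on 35781 genes (29285 to 32751 elsewhere), 68.3% of reads on protein-coding genes (77.1% to 81.8% elsewhere) and 7.62% on the ribosomal gene Rn18s-rs5. Members took 0.646%, 1.16% and 0.921% of reads in the LDL libraries of mice 1, 2 and 3 and 1.05%, 1.16% and 1.17% in the PBS libraries. As a share of reads on nuclear protein-coding genes they took 1.04%, 1.53% and 1.22% with LDL and 1.42%, 1.63% and 1.55% with PBS, lower with LDL in each mouse while the groups overlapped. The part of that library's composition in the members' values was not tested, and the values without mouse 1 are those given above. In bulk RNA, fewer cells of a type and less RNA per cell cannot be told apart.

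Promoters of some members that fell are shown to give the sequence from which these transcripts start. All those shown hold letters searched here, whereas others that fell, such as Ndufa1, Sdhb, Cox5b and Cox7a2l, hold none. Atp5if1 and Uqcrq had no matched promoter. RefSeq promoters on GRCm38.p6, running from 250 bases before to 50 after the start, were matched to 69 member genes (74 promoters). The letters GCGCATGCG (NRF1), CCGGAAGT (GABPA), TCAAGGTCA (ERRA), AAGATGGCG (YY1) and CCAATC (NF-Y) were searched on both strands. In the sequences below, capitals mark every match to these letters. Atp5mc2 (chr15:102670998-102671297, minus strand) and Atp5me (chr5:108434350-108434649, minus strand) hold the NRF1 letters, which overlap themselves on the opposite strand, and Atp5pd (chr11:115419870-115420169, minus strand) holds the GABPA and NF-Y letters. Ndufb11 (chrX:20617570-20617869, minus strand) holds the NF-Y letters at 2 places, Ndufs6 (chr13:73328433-73328732, minus strand) the YY1 letters and Uqcrh (chr4:116075021-116075320, minus strand) the GABPA letters.
Atp5mc2: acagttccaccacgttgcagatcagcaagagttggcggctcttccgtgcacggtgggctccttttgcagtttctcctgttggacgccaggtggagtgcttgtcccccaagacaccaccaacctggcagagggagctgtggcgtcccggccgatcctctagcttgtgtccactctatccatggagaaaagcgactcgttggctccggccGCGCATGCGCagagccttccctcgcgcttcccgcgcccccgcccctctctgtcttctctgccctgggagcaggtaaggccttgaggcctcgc
Atp5me: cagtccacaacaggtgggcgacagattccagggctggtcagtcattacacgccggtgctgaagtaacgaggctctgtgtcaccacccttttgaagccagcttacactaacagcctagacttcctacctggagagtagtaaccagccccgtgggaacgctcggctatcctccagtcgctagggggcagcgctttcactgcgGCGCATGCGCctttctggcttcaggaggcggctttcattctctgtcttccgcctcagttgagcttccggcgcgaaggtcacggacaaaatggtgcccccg
Atp5pd: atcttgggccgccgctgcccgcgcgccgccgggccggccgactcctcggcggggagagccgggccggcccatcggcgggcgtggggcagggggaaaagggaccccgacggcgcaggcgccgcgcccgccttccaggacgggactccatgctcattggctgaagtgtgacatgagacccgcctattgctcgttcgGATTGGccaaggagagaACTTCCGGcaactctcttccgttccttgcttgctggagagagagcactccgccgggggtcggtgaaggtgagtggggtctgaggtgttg
Ndufb11: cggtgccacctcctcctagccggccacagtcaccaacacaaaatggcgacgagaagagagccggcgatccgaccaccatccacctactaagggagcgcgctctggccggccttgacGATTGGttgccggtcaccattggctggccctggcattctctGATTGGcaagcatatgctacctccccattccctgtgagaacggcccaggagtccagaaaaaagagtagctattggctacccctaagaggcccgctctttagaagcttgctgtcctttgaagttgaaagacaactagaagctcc
Ndufs6: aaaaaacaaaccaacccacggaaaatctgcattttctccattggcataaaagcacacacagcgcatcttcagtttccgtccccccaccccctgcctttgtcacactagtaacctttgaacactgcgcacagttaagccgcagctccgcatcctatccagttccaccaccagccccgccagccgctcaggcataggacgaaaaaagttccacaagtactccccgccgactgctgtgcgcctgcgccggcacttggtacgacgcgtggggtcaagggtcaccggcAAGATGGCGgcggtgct
Uqcrh: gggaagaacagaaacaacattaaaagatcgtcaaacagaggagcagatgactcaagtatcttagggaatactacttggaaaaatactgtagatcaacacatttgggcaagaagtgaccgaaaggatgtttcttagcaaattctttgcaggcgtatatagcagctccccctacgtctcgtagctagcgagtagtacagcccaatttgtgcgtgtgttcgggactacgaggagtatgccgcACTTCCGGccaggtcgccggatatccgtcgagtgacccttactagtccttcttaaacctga

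The NRF1 letters stood in 10.8% of member promoters and 2.35% of all 21263 promoters of protein-coding genes, the YY1 letters in 9.46% and 1.83%, the ERRA letters in 2 of 74 and in 0.334%, the GABPA letters in 6.76% and 5.15%, and the NF-Y letters in 18.9% and 18.2%. Among the 22 matched genes that fell, 2 held the NRF1 letters, 2 the GABPA letters, 2 the YY1 letters, 0 the ERRA letters and 5 the NF-Y letters. Of the 45 matched genes that were tested and not called, 6 held the NRF1 letters, 3 the GABPA letters, 5 the YY1 letters, 2 the ERRA letters and 8 the NF-Y letters. A match of letters is a description of the sequence only.

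Complex I, which oxidizes NADH, had 37 tested members, of which 12 fell, and its median log2 fold change was -0.31. All 37 estimates were below 0, and 28 genes were lower with LDL in each mouse. Ndufb11, an accessory subunit of the membrane arm on chromosome X of GRCm39 (20481563 to 20484457, minus strand), had normalized counts of 566, 1195 and 800.2 with LDL and 1191, 1413 and 1330.3 with PBS in mice 1, 2 and 3. The LDL library of mouse 1 was the lowest, and the LDL value of mouse 2 lay just above the PBS value of mouse 1, so the groups overlapped. The estimate was -0.68 ± 0.14 on the log2 scale (SE, here and below; adjusted p = 0.0181, limma). The gene shares 67.8% of its exon bases with Rbm10 on the opposite strand, whose log2 fold change was -0.12 (adjusted p = 0.304, limma), and reads of the pair cannot be told apart where the strand setting of the counting is not known.

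Ndufa6, an accessory subunit of the peripheral arm, had 1244, 2205 and 1621 normalized counts with LDL and 2052, 2628 and 2211 with PBS. LDL was below PBS in each mouse, the LDL value of mouse 2 lay among the PBS values, and the log2 fold change was -0.47 ± 0.10 (adjusted p = 0.0176, limma); 25.6% of its exon bases overlap Smdt1 on the opposite strand. Ndufa1, an accessory membrane subunit needed for assembly, had 633, 847 and 589.5 with LDL and 806, 1095 and 915 with PBS. Mouse 2 differed here about as much as mouse 1, by -0.37 and -0.35, its LDL value still exceeded the PBS value of mouse 1, and the log2 fold change was -0.45 ± 0.09 (adjusted p = 0.0157, limma).

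The 7 nuclear-encoded core subunits of complex I, which include those that carry the flavin and the iron-sulfur clusters, were each lower with LDL in all 3 mice, and 3 of them fell. Ndufv2, which holds an iron-sulfur cluster, changed by -0.41 ± 0.10 (adjusted p = 0.0337, limma). Ndufv1, the flavin-binding subunit, had 1993, 3061 and 2264 with LDL and 2774, 3320.3 and 3068 with PBS, with a log2 fold change of -0.34 ± 0.09 (adjusted p = 0.0416, limma). Ndufs1, the largest core subunit, missed the threshold at -0.27 ± 0.08 (adjusted p = 0.0547, limma). The core subunits had a median of -0.34, and the 30 tested accessory subunits, 9 of which fell, had a median of -0.29.

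Accessory subunits of complex I spanned a wider range than its core subunits. Ndufb9 changed by -0.43 ± 0.09 on the log2 scale (adjusted p = 0.0149, limma) and Ndufb10, which had the highest level per kilobase of exon in complex I, by -0.31 ± 0.09 (adjusted p = 0.0491, limma). At the other end stood Ndufab1, the mitochondrial acyl carrier protein that also serves fatty acid and lipoate synthesis, with 937, 1249 and 1189 with LDL and 966, 1223 and 1216 with PBS. Those values interleaved, and its log2 fold change was -0.02 ± 0.08 (adjusted p = 0.925, limma). Ndufs5, Ndufb6 and Ndufs4 also had estimates of -0.05, with adjusted p of 0.817, 0.774 and 0.782 (limma).

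**Figure D2:**
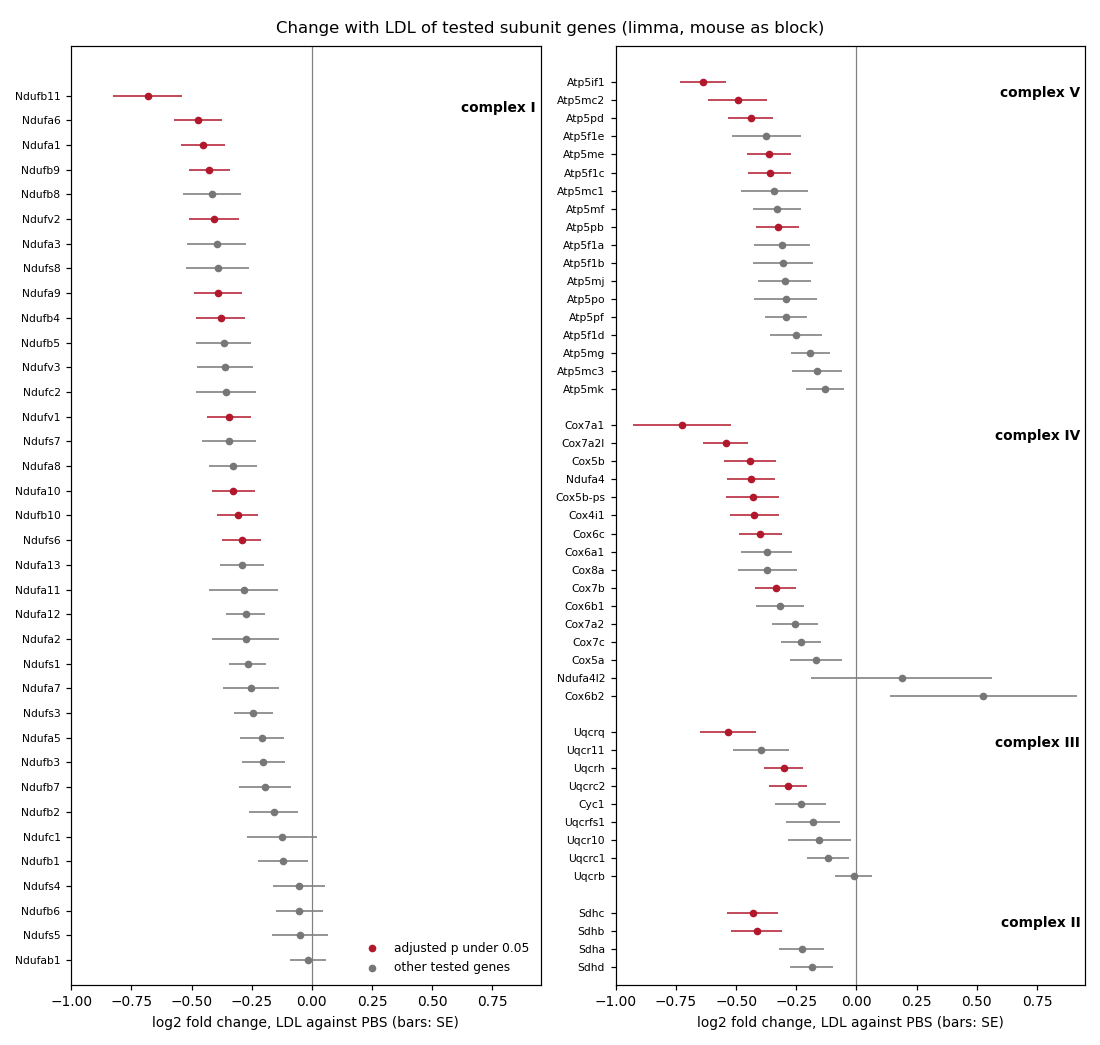
Log2 fold change of LDL against PBS with its standard error for tested subunit genes, complex I on the left and complexes II to V on the right, with 1 gene left out. Red points are genes with an adjusted p under 0.05; the points lie left of 0 except Ndufa4l2 and Cox6b2, which lie right of it with wide bars.

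Complex II, succinate dehydrogenase, links the tricarboxylic acid cycle to the quinone pool and has all its subunits in the nucleus. Of its 4 genes, 2 fell. Sdhb, the iron-sulfur subunit, had 1300.2, 2299 and 1780.2 with LDL and 2094, 2555 and 2352 with PBS. Sdhc, a membrane anchor, had 1677, 2833 and 2081 with LDL and 2643, 3090.4 and 2971 with PBS. In both genes the LDL value of mouse 2 lay above the PBS value of mouse 1, and the log2 fold changes were -0.41 ± 0.11 and -0.43 ± 0.11 (adjusted p = 0.0366 and 0.0325, limma). Sdha, the flavoprotein, had 8234, 10654 and 8081 with LDL and 9629, 11108 and 10644 with PBS, a log2 fold change of -0.23 ± 0.09 (adjusted p = 0.144, limma). For Sdhd, the other anchor, it was -0.19 ± 0.09 (adjusted p = 0.213, limma), and mouse 2 differed by 0.03.

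Complex III, the cytochrome bc1 complex, passes electrons from ubiquinol to cytochrome c, and had the median nearest 0, at -0.23, with 3 of 9 genes called. That median was -0.13 without mouse 1, -0.36 without mouse 2 and -0.18 without mouse 3, and within mouse 2 it was 0.03, with 4 of 9 genes below 0. Uqcrq, a small subunit on the cytochrome b part, had 771, 1562 and 1154 with LDL and 1387, 1847 and 1648 with PBS. The LDL library of mouse 1 was far below the rest, the groups overlapped through mouse 2, and the log2 fold change was -0.53 ± 0.12 (adjusted p = 0.0197, limma). Uqcrh, the hinge subunit at cytochrome c1, and Uqcrc2, a core protein, had log2 fold changes of -0.30 ± 0.08 and -0.29 ± 0.08 (adjusted p = 0.0408 and 0.0473, limma). The subunits that carry the redox centres were not called: Cyc1, cytochrome c1, had -0.23 ± 0.11 and Uqcrfs1, the Rieske protein, -0.18 ± 0.11 (adjusted p = 0.186 and 0.326, limma), and both were higher with LDL in mouse 2, by 0.07 and 0.15.

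Uqcrb, a small ubiquinone-binding subunit, had the highest level per kilobase of its complex. Its normalized counts were 4329, 5227 and 4184 with LDL and 4176, 5131 and 4532 with PBS. The values interleaved, with LDL slightly above PBS in mice 1 and 2, and the log2 fold change was -0.01 ± 0.08 (adjusted p = 0.940, limma). Uqcrc1, the other core protein, had -0.12 ± 0.09 (adjusted p = 0.421, limma).

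Complex IV, cytochrome c oxidase, had the largest median decrease, -0.37, and 8 of its 16 tested genes fell. Cox7a2l, which encodes a supercomplex assembly factor related to the Cox7a subunits and lies on chromosome 17 (83765970 to 83824759, minus strand, GRCm39), had 4620.1, 7147 and 5094 with LDL and 7384, 8876 and 7949 with PBS. Every LDL value lay below every PBS value. The log2 fold change was -0.54 ± 0.09 (adjusted p = 0.00867, limma).

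Cox4i1, the ubiquitous isoform of the subunit that binds ATP, had 3827, 6272 and 4589 with LDL and 5854, 7018 and 6477 with PBS, and a log2 fold change of -0.42 ± 0.10 (adjusted p = 0.0274, limma). Cox5b, a zinc-binding matrix subunit, had 3148, 5923 and 4144 with LDL and 5007, 6559.8 and 5895 with PBS, and a log2 fold change of -0.44 ± 0.11 (adjusted p = 0.0295, limma). In both genes LDL was below PBS in each mouse and mouse 2 made the groups overlap. Cox5b-ps had a like value, -0.43 ± 0.11 (adjusted p = 0.0380, limma), and since it is a near-identical copy, reads could have been split between the pair. Ndufa4, a late-joining subunit, had -0.44 ± 0.10, Cox6c -0.40 ± 0.09 and Cox7b -0.34 ± 0.09 (adjusted p = 0.0245, 0.0213 and 0.0368, limma). Cox5a, another matrix-side subunit, had 829, 1317 and 1094 with LDL and 1091, 1213 and 1282 with PBS, with a log2 fold change of -0.17 ± 0.11 (adjusted p = 0.342, limma).

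Paralogs with restricted tissue patterns were low or absent, and the common isoforms carried the levels. Per kilobase of exon, Cox6a1 had a mean normalized count of 6602 and Cox6a2, the heart and muscle isoform, 6.98; Cox8a had 5143 and Cox8b 0.587; Cox4i1 had 1804 and Cox4i2 1.17; Cox6b1 had 2374 and Cox6b2, the testis isoform, 23.8. Cox7b2 and Cox8c had no read in any library, which allows up to 3 reads in each. The order of genes of like level changed with the length used: Ndufa4 had 182 per kilobase of all annotated exons and 2977 per kilobase of its canonical transcript, and Cox6c 506 and 9479.

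Cox7a1, the muscle-type isoform, was an exception among them in that it was tested and called. Its normalized counts were 46.3, 120.0 and 51.0 with LDL and 97.0, 142 and 95.3 with PBS, on 38 to 132 reads per library. LDL was lower in each mouse, the groups overlapped through mouse 2, and the log2 fold change was -0.72 ± 0.20 (adjusted p = 0.0496, limma), the largest fall among the members, which missed the threshold in edgeR and DESeq2. Cox7a2, its ubiquitous counterpart, had -0.26 ± 0.10 (adjusted p = 0.115, limma). Cox6a2 was below the filter, with 0, 3 and 0 reads with LDL and 6, 12 and 6 with PBS, too few to compare. Cox6b2 and Ndufa4l2, the only members with estimates above 0, had log2 fold changes of 0.53 ± 0.39 and 0.19 ± 0.38 (adjusted p = 0.420 and 0.785, limma), and had estimates below 0 without mouse 2 and without mouse 1, respectively.

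**Figure D3:**
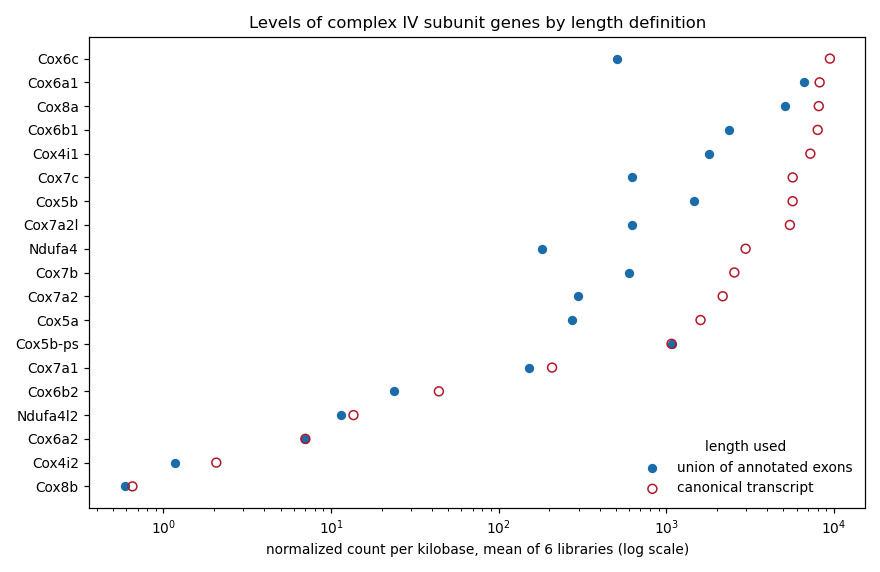
Mean normalized count per kilobase over the 6 libraries for complex IV genes with any read, on a log axis, with length taken as the union of annotated exons (filled) or the canonical transcript (open). Common isoforms lie at the top and the paralogs Cox8b, Cox4i2, Cox6a2, Ndufa4l2, Cox6b2 and Cox7a1 at the bottom under both lengths.

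Complex V had 18 tested genes, of which 6 fell, and a median of -0.32. Atp5if1, which encodes the inhibitor that blocks the reverse reaction of the enzyme, had 4098, 6699.5 and 4504 with LDL and 6920.0, 8843 and 7638 with PBS. No LDL value reached the lowest PBS value. It had the smallest adjusted p of all members (0.00492, limma) and a log2 fold change of -0.64 ± 0.10, a change of -35.8%. Atp5if1 lies on chromosome 4 of GRCm39 (132257215 to 132262823, minus strand), and 34.6% of its exon bases overlap the noncoding Gm12999 on the other strand, which had no reads.

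The c subunit of the rotor ring is made from 3 genes that encode the same mature protein. Atp5mc2 had 1043, 2005 and 1559 with LDL and 1846, 2224 and 2220.2 with PBS, with a log2 fold change of -0.49 ± 0.12 (adjusted p = 0.0319, limma). Atp5mc1 had 1692, 3799 and 2774 with LDL and 2793, 3589 and 3615 with PBS, with -0.34 ± 0.14 (adjusted p = 0.143, limma), and in mouse 2 its LDL value was the higher. Atp5mc3 had -0.16 ± 0.10 (adjusted p = 0.331, limma), again with LDL higher in mouse 2, so only 1 of the 3 genes was called and the difference between them was not tested.

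In the stator, Atp5pd had 3338, 5033 and 3783 with LDL and 4918, 5804 and 5543 with PBS, and fell by 0.44 on the log2 scale (SE 0.09; adjusted p = 0.0186, limma). Atp5pb, another stalk subunit, had -0.33 ± 0.09, and Atp5me, a small membrane subunit, -0.36 ± 0.09 (adjusted p = 0.0448 and 0.0352, limma). The catalytic head gave 1 call in 5, Atp5f1c, the central shaft, at -0.36 ± 0.09 (adjusted p = 0.0332, limma). Atp5f1b, the catalytic beta subunit and the highest gene per kilobase in the complex, had 22271, 36907 and 27747 with LDL and 31322, 37329.8 and 36871 with PBS. Its LDL value in mouse 2 was level with PBS, and the log2 fold change was -0.31 ± 0.13 (adjusted p = 0.146, limma).

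**Figure D4:**
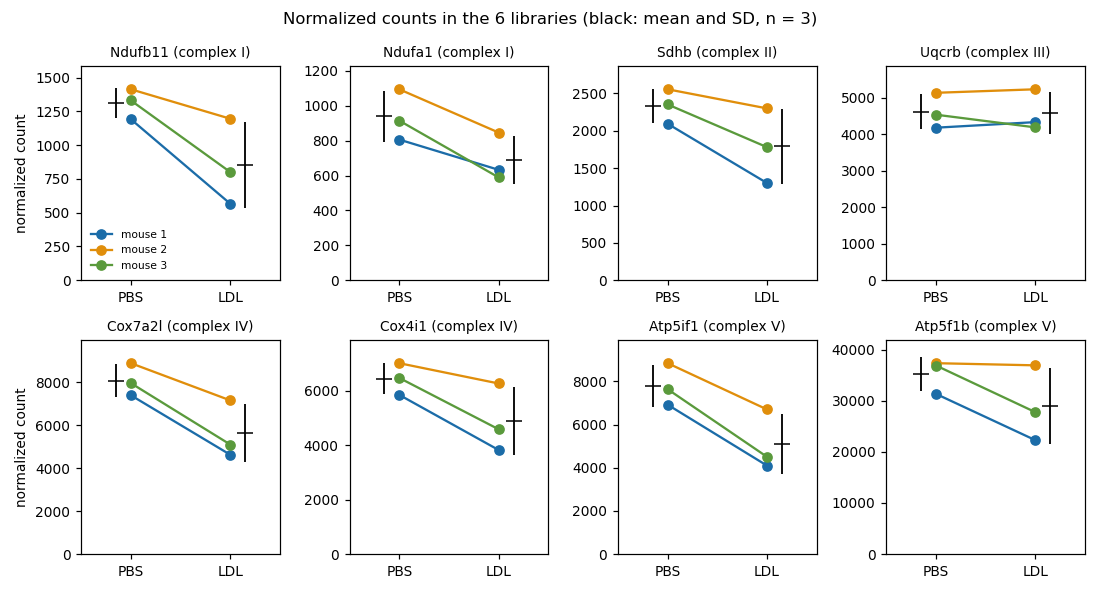
Normalized counts of 8 subunit genes in the 6 libraries, on linear axes from 0; lines join the PBS and LDL library of a mouse, and black marks give the mean and SD of 3 libraries. LDL lies below PBS in each mouse for all shown except Uqcrb, and the groups are separate only for Cox7a2l and Atp5if1.

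Other genes of the system were counted from hand-written lists, in the fit where 7.45% of all genes tested fell and 8.27% rose. Of the 13 mitochondrially encoded subunits limma called 0 (0 at an unadjusted p under 0.05, and 0 adjusted calls by edgeR and DESeq2), their median was 0.07, and they took 6.18% to 6.32% of reads with LDL and 5.78% to 6.46% with PBS. Of 60 assembly factors, 4 fell (6.67%, near the share of all genes) and 0 rose, with a median of -0.20. Coa8, a factor of complex IV, had -0.56 ± 0.11 and Bcs1l, which inserts the Rieske protein, -0.45 ± 0.12 (adjusted p = 0.0131 and 0.0442, limma). Of 77 mitochondrial ribosomal protein genes 1 fell, Mrpl23 at -0.50 ± 0.14 (adjusted p = 0.0495, limma), and the median was -0.11. Of 29 import genes limma called 0 (4 at an unadjusted p under 0.05; 1 adjusted call by edgeR and 0 by DESeq2), and the median was -0.04.

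Among 21 genes of quinone and cytochrome c handling 3 fell and 2 rose. Coq8a, a kinase-like protein of ubiquinone synthesis, had 288, 796 and 389.7 with LDL and 1244, 1418 and 1273 with PBS. Pdss1, which makes the side chain of ubiquinone, had 1314, 1852 and 1280.2 against 2833, 2530.0 and 2207. No LDL value reached a PBS value in either gene, and the log2 fold changes were -1.55 ± 0.21 and -0.78 ± 0.12 (adjusted p = 0.00313 and 0.00536, limma). Coq10b, a ubiquinone-binding protein, rose by 0.89 ± 0.16 and Gpd2, the glycerol phosphate dehydrogenase that feeds the quinone pool, by 0.44 ± 0.10 (adjusted p = 0.0103 and 0.0222, limma). Of 14 tricarboxylic acid cycle genes 4 fell and the median was -0.17; Idh2 and Idh3g had -0.44 ± 0.12 and -0.43 ± 0.10 (adjusted p = 0.0453 and 0.0307, limma). Of 11 carriers of adenine nucleotides and phosphate 2 rose, Slc25a4 by 0.64 ± 0.13 and Ucp2 by 0.41 ± 0.09 (adjusted p = 0.0146 and 0.0210, limma), and the median was -0.14.

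Of 24 genes encoding regulators of this system 1 fell and 2 rose, and the median was 0.01. Esrrg, a nuclear receptor that activates oxidative genes, had 288, 789 and 336 with LDL and 1257, 1465 and 1161 with PBS, with a log2 fold change of -1.60 ± 0.20 (adjusted p = 0.00264, limma). Ppard rose by 0.76 ± 0.13 and Pprc1, a PGC-1-related coactivator, by 0.26 ± 0.07 (adjusted p = 0.00777 and 0.0454, limma). Nrf1, Gabpa and Yy1, whose binding letters were searched above, had adjusted p of 0.995, 0.755 and 0.823, and Esrra and Ppargc1a had -0.28 ± 0.09 and -0.25 ± 0.14 (adjusted p = 0.0705 and 0.271, limma). Cytosolic ribosomal protein genes, another set of short and abundant transcripts, had a median of -0.50, and 66 of 78 fell; Rps27 and Rpl12 had -0.66 ± 0.10 and -0.66 ± 0.12 (adjusted p = 0.00497 and 0.0102, limma).

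**Figure D5:**
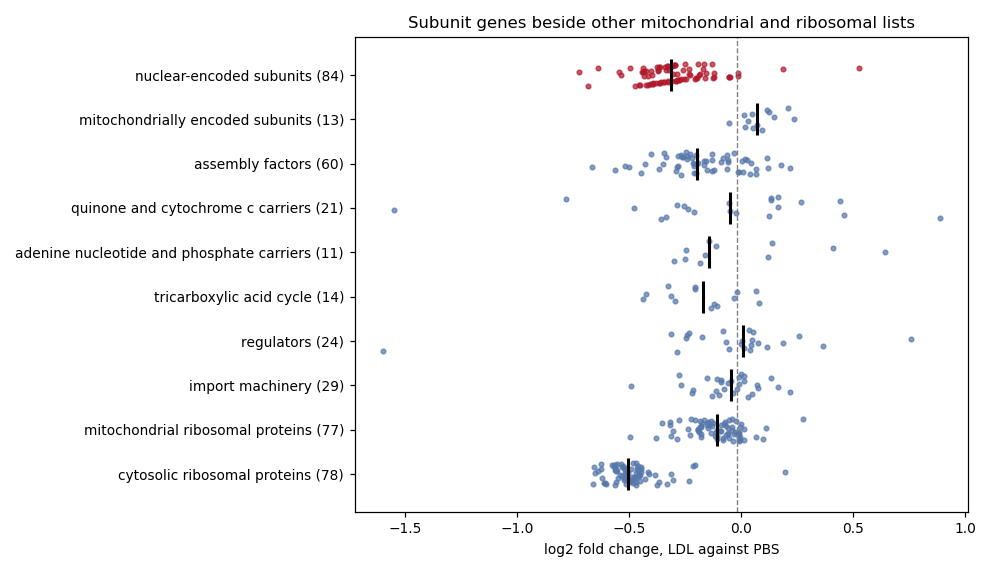
Log2 fold change of LDL against PBS for the tested genes of the subunit set (red) and of 9 other lists (blue); each point is 1 gene, black bars are medians and the dashed line is the median of all genes tested, -0.02. The subunits have a median of -0.31, between that of the cytosolic ribosomal proteins (-0.50) and that of the assembly factors (-0.20).

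Transcript length differed between the members and other genes, with medians of 1046.5 and 3410 bases for the canonical transcript of members and of nuclear protein-coding genes tested. Within each of 5 length bins the members' median lay between -0.40 and -0.29. For nuclear protein-coding genes it was -0.37 up to 500 bases (77 genes), -0.13 from 500 to 1000 (554 genes) and -0.07 from 1000 to 2000 (2198 genes). Of the 84 tested members, 28 shared no exon base with a gene on the opposite strand; 10 of these fell, and their median was -0.33. Protein-coding genes on the opposite strand covered at least 25% of the exon bases of 10 tested members, among them Ndufb11, Ndufa6, Ndufb9 and Uqcrc2 of those that fell.

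Markers of cell types moved with LDL as well, and their part in the subunit values was not tested. Enterocyte markers summed to 19255 to 42825 with LDL and 15694 to 35321 with PBS (3 of 6 rose, 1 fell), and goblet markers to 26119 to 31653 and 43791 to 49552 (1 of 5 rose, 3 fell). Stem cell markers summed to 6947 to 13435 and 13169 to 25498 (1 of 4 rose, 2 fell), and Paneth markers to 8116 to 10369.9 and 10419.5 to 17594 (1 of 4 rose, 1 fell). Of 6 general epithelial markers 3 rose, of 4 enteroendocrine markers 1 fell and of 3 tuft markers 1 fell. Fibroblast markers were near 0, with none of 6 tested and sums of 3.64 to 34.2 with LDL and 7.46 to 13.0 with PBS, and of muscle, endothelium and leukocyte markers 1 each was tested and none was called.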

How the data were processed

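RNA-Seq was analyzed in organoids from 3 mice, each with 1 LDL-treated and 1 PBS-treated library. The authors removed ribosomal RNA, made stranded single-end libraries, aligned reads to GRCm39 with STAR 2.7.10b, counted them with featureCounts and used DESeq2; the strand setting and annotation release are not given in the sources used here. The authors deposited normalized counts per gene (a signal unit), which are reads divided by the size factor of each library; 100% of 332496 values came out as whole reads (tolerance 0.001). Library totals were 22061545 to 31073360 reads, which limit precision by counting error only where reads are few, with a count of 0 allowing up to 3 reads. Gene types, positions and lengths came from GENCODE M39, which held 54749 of 55416 identifiers.

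LDL and PBS were compared with limma 3.58.1 (eBayes with trend, two-sided) in R 4.3.3 on log2(normalized count + 1) for the 18459 genes whose mean normalized count reached 10, with the mouse as a block, and genes were called at a Benjamini-Hochberg adjusted p under 0.05. The labels give same-numbered libraries the same animal, and their deviations from the group means had correlations over genes of 0.484, 0.421 and 0.462 for mice 1, 2 and 3, where genes do not count as independent replicates. Each mouse gave 1 culture per treatment. With the block, p-values therefore rest on how the LDL-minus-PBS difference varied between mice, with differences between cultures included. Without the block they rest on the spread between libraries within each group. Alternatives were no block, pseudocounts of 0.5 and 5, no filter and a mean of at least 50, upper-quartile and quantile scaling, edgeR 4.0.16 and DESeq2 1.42.0 with the block on recovered reads, each mouse left out, a 1.5-fold threshold and unadjusted p; scaling to the nuclear protein-coding total and canonical transcript length were chosen after seeing the data. Fits were tested on simulated counts with 200 genes changed by a log2 fold change of 1. With mouse differences of SD 0.5, limma with the block recovered 165 and without it 0 (18214 genes). With mouse differences of SD 0, it recovered 166 with the block and 167 without it (18271 genes). Recovery where the LDL response itself differs between mice, as it did for the members, was not tested.

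The members, the hand-written gene lists and the tests were chosen with earlier results of these data known; the roles within complexes were grouped after values had been seen. Genes were named where they were among the 4 largest changes called in a complex each way, had the highest level per kilobase of exon in it, were core subunits or paralogs picked by name, or were among the 2 largest changes called in a list each way; other genes given in the text were chosen after their values were seen, and 1 member is counted in the totals but not reported by name here. Python 3.11.15 with pandas 2.3.3, matplotlib 3.10.9 and numpy 2.4.6 served for tables and plots. Promoters came from RefSeq on GRCm38.p6.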

Additional observations from a re-analysis of the deposited data

How the results depend on the processing

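The members' median log2 fold change and those of the 5 complexes kept their sign and moved by less than the spread between mice under every alternative run, the member median lying between -0.43 and -0.23 and that of complex III between -0.36 and -0.13. The 31 calls did not hold in the same way. Without the replicate block limma called 0 members lower, with a mouse left out 0 to 73, with a 1.5-fold threshold 3 and at an unadjusted p under 0.05 59; no member was called higher in any of these. Over all genes tested, the numbers called higher and lower were 172 and 76 without the replicate block, 265 to 2616 and 77 to 3062 with a mouse left out, and 2662 and 2892 at an unadjusted p, and 639 were lower by more than 1.5-fold. Over the other lists, 6 genes rose and 79 fell; these counts were 0 and 0 without the replicate block, 0 to 12 and 0 to 146 with a mouse left out, 3 and 12 at 1.5-fold, and 10 and 131 at an unadjusted p. Of 53 named genes tested, 36 were called. All 36 lost their call without the replicate block and without mouse 3, and 25 lost it without mouse 1. None of those called changed sign; of the genes not called, 3 did: Uqcrb (-0.01) was at 0.01 with edgeR, 0.0043 with DESeq2, 0.01 scaled to the nuclear protein-coding total and 0.04 without mouse 3, Cox6b2 (0.53) was at -0.06 without mouse 2 and Ndufa4l2 (0.19) at -0.23 without mouse 1. Leaving out a mouse leaves fewer samples; beyond that the cause was not tested. The depth of 22061545 to 31073360 reads limits members with few reads, such as Cox7a1, Cox6b2 and Ndufa4l2.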
